A study of Mus musculus with 10 samples.

Results

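The subject is the calcium/calmodulin-dependent protein kinase (CaM kinase) family in the amygdala of wild-type and neuropsin-/- mice, as 8 genes: Camk2a, Camk2b, Camk2d and Camk2g, Camk4, Camk1d, Camkk1 and Camkk2. Its members were the probe sets annotated to exactly 1 gene symbol, that of 1 of these genes. There were 269 such probe sets, of 318760 with 1 symbol on the array. Of the 269, 257 had a mean over all arrays above an intensity filter of 4.94 (log2), set at the middle of the whole array, and all 8 genes were among the 16367 genes tested.

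The arrays were GeneChip Mouse Exon 1.0 ST arrays, whose probe sets each read roughly a single exon, so that most genes have many. There were 10 arrays, 5 of wild-type C57BL/6 mice and 5 of neuropsin-/- mice, a line without neuropsin (the secreted serine protease encoded by Klk8) that had been backcrossed to C57BL/6 for 12 generations. All animals were 3 months old and were perfused with cold saline before dissection, and the labels name no other treatment. Amygdalae came from 15 animals of each genotype, and RNA of 3 animals was pooled per hybridisation, as the design text has it. The 5 arrays of a genotype were therefore taken to be separate pools, and the p-values measure the spread between them. The labels name no tissue to which the deletion is restricted, and the tissue was bulk amygdala, so a value is that of a mixture of neurons, glia and vessel cells. In such tissue fewer cells of a type and less RNA per cell cannot be told apart.

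CaM kinases are serine/threonine kinases that are switched on when calcium rises in a cell and calmodulin, loaded with calcium, binds to them. CaMKII is a ring of subunits made from the alpha, beta, delta and gamma genes, is abundant at excitatory synapses, and is a textbook mediator of long-term potentiation and of fear memory in the amygdala. CaMKI and CaMKIV work in a cascade in which a CaM kinase kinase phosphorylates them, and CaMKIV acts in the nucleus on the transcription factor CREB.

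Array medians ranged from 4.95 to 5.03. In a principal component analysis of gene levels the leading axis carried 35.5% of the variance, and on it wild-type arrays 4 and 5 stood apart at 20.5 and 23.5 while the other 8 lay between -14.2 and 7.45, so results that rest on those arrays are given with and without them. The targeted gene Klk8, over its 9 probe sets, averaged 5.17 ± 0.27 on the wild-type and 5.02 ± 0.29 on the knockout arrays (SD, n = 5 each; exact permutation p = 0.413, two-sided), and the deleted exons are not named in the labels, so this does not check them. Markers of the neurons of a forebrain dissection were measured above the filter: the glutamate transporter gene Slc17a7 averaged 10.16 ± 0.16 on wild-type and 10.40 ± 0.08 on knockout arrays, and the GABA-synthesising enzyme gene Gad1 at 9.82 ± 0.22 and 9.79 ± 0.10 (SD, n = 5 each).

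No CaM kinase gene passed the test between genotypes (limma, adjusted p over 16367 genes, threshold 0.05), while 4 genes, 0.0244% of those tested, did. The estimate was nevertheless higher in the knockout for all 8 members, by 0.05 to 0.24 on the log2 scale with a median of 0.11. The 8 were chosen with earlier results of these data known. Of 11 other CaM kinases and relatives, 6 estimates were higher and 5 lower, the lower including Camk1 (-0.02) and Pnck (-0.04). An estimate above 0 was found in 49.3% of all genes tested and in 66% of the 2290 genes whose mean level was at or above that of the dimmest member, 8.44. Of the 8 members only Camkk1 had an unadjusted p under 0.05 (limma), on the higher side. Such a p was found in 6.98% of all genes, 2.84% higher and 4.14% lower. It was found in 6.11% of the genes at least as bright as the dimmest member. When any 1 array was left out this count of members ran from 0 to 3. In none of the 8 did the groups separate completely, against 1.55% of all genes (0.923% with the knockout higher). Without wild-type arrays 4 and 5 the estimate was above 0 in 7 of the 8 members, in 33.8% of all genes and in 35.4% of the genes at least as bright as the dimmest member, and no member had an unadjusted p under 0.05.

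**Figure D1:**
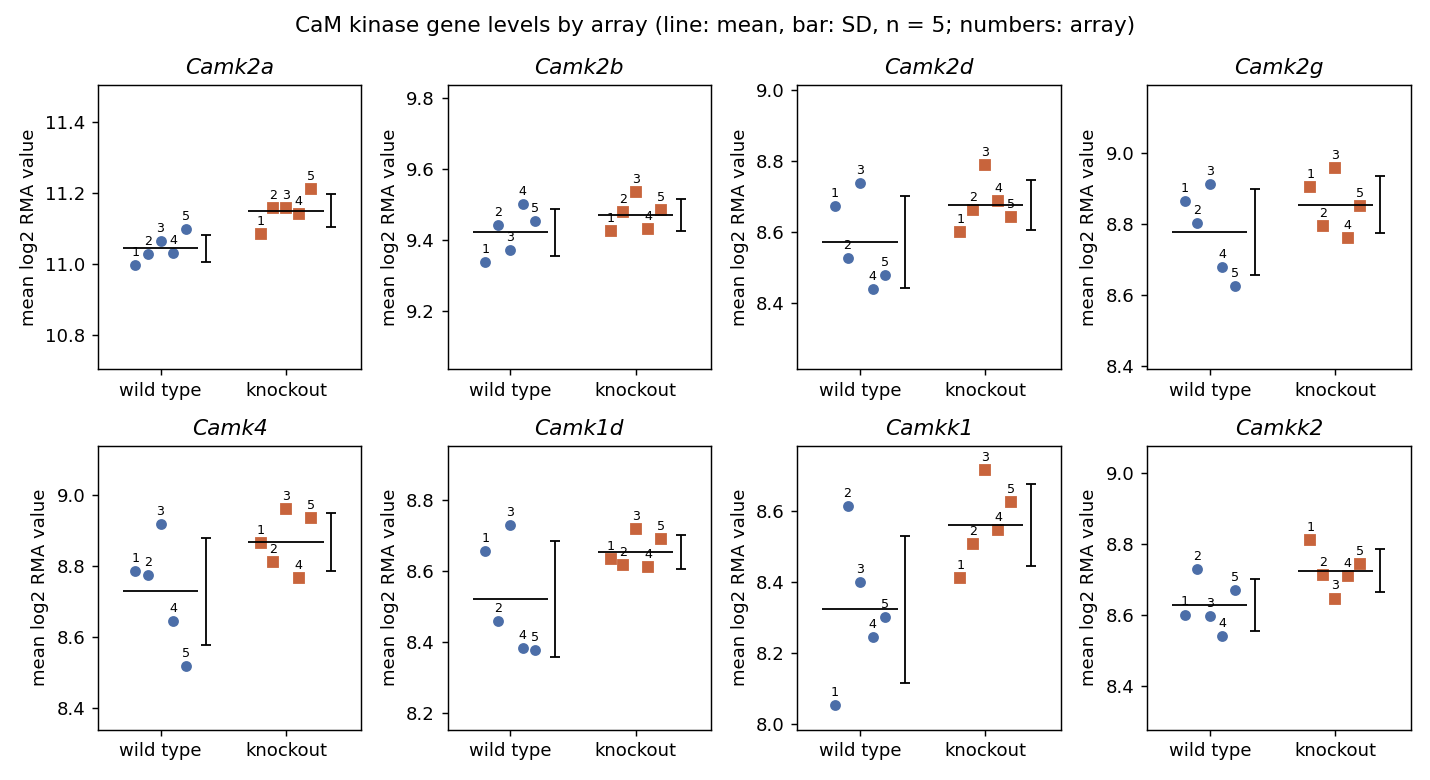
Gene level (mean log2 RMA value over the probe sets above the filter) of each CaM kinase gene on the 10 arrays, with circles for wild type, squares for knockout, the array number at each point, the mean as a line and the SD as a bar (n = 5). Each panel spans the same range of log2 units. The groups overlap in all 8 panels, Camk2a coming closest to separation with 4 of 5 knockout arrays above every wild-type array.

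The CaMKII alpha gene Camk2a, the main subunit of forebrain excitatory neurons, had the tightest values. It read 10.997, 11.03, 11.07, 11.03 and 11.10 on wild-type arrays 1 to 5 and 11.08, 11.16, 11.16, 11.14 and 11.21 on knockout arrays 1 to 5. All knockout arrays except array 1 lay above every wild-type array, and the SD was 0.04 in wild type and 0.05 in the knockout. The difference was 0.11 (SE 0.06, 95% interval -0.03 to 0.24), which is 1.08-fold, and the limma adjusted p was 0.749. The exact permutation test of this 1 value over the 10 arrays, which uses no spread from other genes, gave an unadjusted p of 0.0159 (two-sided). It was 1 of 8 such values, 1 per member, and they were not adjusted. The Camk2a difference was 0.12 with wild-type arrays 4 and 5 left out (limma adjusted p = 0.518).

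The beta gene Camk2b encodes the subunit that ties the CaMKII ring to actin in spines. It read 9.34, 9.44, 9.37, 9.50 and 9.46 in wild type and 9.43, 9.48, 9.54, 9.43 and 9.49 in the knockout. Knockout array 3 was the highest of the 10 and wild-type arrays 1 and 3 were the lowest, and the other 7 arrays of the 2 groups were interleaved. The difference of 0.05 (SE 0.07, interval -0.09 to 0.19, adjusted p = 0.896) was the smallest of the family. It was 0.09 with wild-type arrays 4 and 5 left out and 0.03 without wild-type array 1.

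The delta gene Camk2d and the gamma gene Camk2g encode the CaMKII subunits that are also widespread outside the brain. Camk2d read 8.67, 8.53, 8.74, 8.44 and 8.48 in wild type and 8.60, 8.66, 8.79, 8.69 and 8.64 in the knockout. Camk2g read 8.86, 8.80, 8.91, 8.68 and 8.63 in wild type and 8.90, 8.80, 8.96, 8.76 and 8.85 in the knockout. In both genes wild-type arrays 4 and 5 were the lowest of all 10 and knockout array 3 was the highest. The difference was 0.10 (SE 0.08, interval -0.06 to 0.27, adjusted p = 0.821) for Camk2d and 0.08 (SE 0.08, interval -0.09 to 0.24, adjusted p = 0.866) for Camk2g. With wild-type arrays 4 and 5 left out the differences were 0.03 and -0.0056, so the direction of Camk2g turned.

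Camk4 encodes CaMKIV, the nuclear kinase of neurons that phosphorylates CREB. Its level was 8.78, 8.77, 8.92, 8.64 and 8.52 on the wild-type arrays and 8.86, 8.81, 8.96, 8.77 and 8.93 on the knockout arrays. The difference was 0.14 (SE 0.08, interval -0.04 to 0.32, adjusted p = 0.751), and it was 0.04 without wild-type arrays 4 and 5, again the 2 lowest of all 10.

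Camk1d encodes a CaMKI isoform, one of the kinases that the CaM kinase kinases activate. It read 8.66, 8.46, 8.73, 8.38 and 8.38 in wild type and 8.63, 8.62, 8.72, 8.61 and 8.69 in the knockout. The knockout arrays kept within a narrow band (SD 0.05) that lay inside the spread of the wild-type arrays (SD 0.16). The difference was 0.13 (SE 0.08, interval -0.05 to 0.31, adjusted p = 0.766) over all arrays and 0.04 without wild-type arrays 4 and 5.

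The kinase at the top of the cascade with the largest estimate was CaM kinase kinase 1. Camkk1 read 8.05, 8.61, 8.40, 8.24 and 8.30 on the wild-type arrays and 8.41, 8.51, 8.71, 8.55 and 8.62 on the knockout arrays. Wild-type array 1 was the lowest of the 10, wild-type array 2 lay inside the knockout range, and the other 3 wild-type arrays lay below every knockout array. The difference was 0.24 (SE 0.10, interval 0.02 to 0.45), a 1.18-fold difference with an interval of 1.02 to 1.37, with an unadjusted p of 0.0321 and a limma adjusted p of 0.693. Camkk1 was at rank 747 of the 16367 genes by p. The difference was 0.17 without wild-type array 1 and 0.31 without wild-type array 2, and the exact permutation p of this 1 value was 0.0476 (two-sided, unadjusted).

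Camkk2 encodes the second CaM kinase kinase, which also activates the energy sensor AMPK. It read 8.60, 8.73, 8.60, 8.54 and 8.67 in wild type and 8.81, 8.71, 8.65, 8.71 and 8.74 in the knockout. Here knockout array 3 was the lowest of its group, the reverse of its place in Camk2b, Camk2d, Camk2g, Camk4, Camk1d and Camkk1. The difference was 0.10 (SE 0.07, interval -0.05 to 0.24, adjusted p = 0.805). Taking the median in place of the mean of a gene's probe sets made the Camkk2 difference 0.0053 and that of Camk1d 0.07. Over all 31 probe sets, below the filter included, it was 0.11 (exact permutation p = 0.0238, two-sided, unadjusted), and the same test gave 0.135 to 0.278 for Camk2b, Camk2d, Camk2g, Camk4 and Camk1d.

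**Figure D2:**
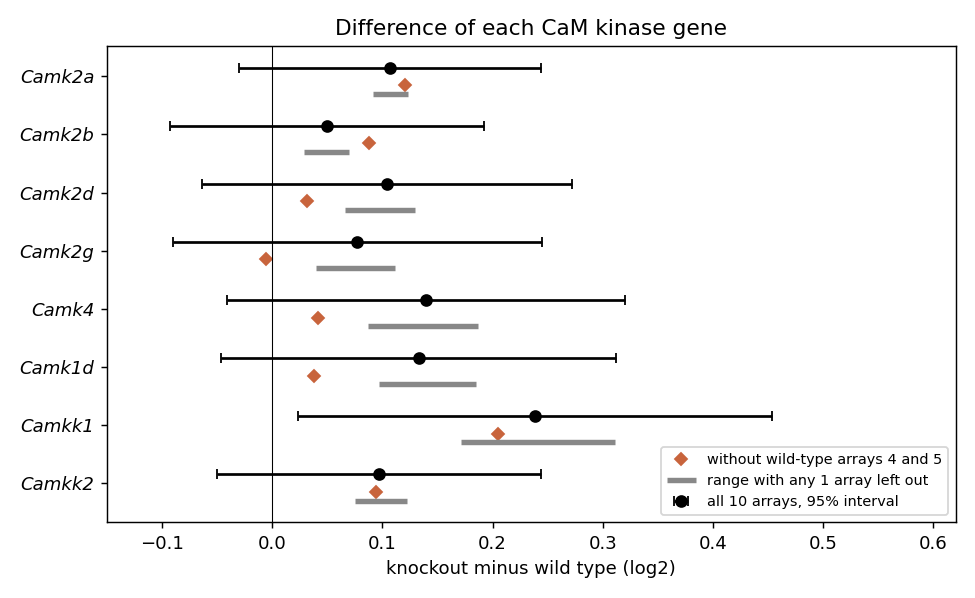
Difference of each CaM kinase gene, knockout minus wild type on the log2 scale: circles with 95% intervals are the fit to all 10 arrays, diamonds the fit without wild-type arrays 4 and 5, and grey bars the range when any 1 array was left out. Of the 8 intervals only that of Camkk1 (0.02 to 0.45) lies above 0, and the diamonds of Camk2d, Camk2g, Camk4 and Camk1d lie between -0.0056 and 0.04.

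The members fell into different patterns over the arrays of a genotype, a grouping made after their values were seen. The deviation of wild-type array 3 from its genotype mean was 0.17 in Camk2d, 0.14 in Camk2g, 0.19 in Camk4 and 0.21 in Camk1d, and that of array 5 was -0.09, -0.15, -0.21 and -0.14. All 4 genes were above their mean on wild-type arrays 1 and 3 and below it on arrays 4 and 5. On array 2 they split, with Camk2d and Camk1d at -0.05 and -0.06 and Camk2g and Camk4 at 0.02 and 0.05. Their deviations from the genotype means correlated pairwise at r = 0.727 to 0.935 over the 10 arrays and at 0.518 to 0.841 without wild-type arrays 4 and 5, as a description of arrays that share tissue and processing. Between Camk2a or Camk2b and these 4 genes the 8 correlations ran from -0.587 to -0.0015 over the 10 arrays, but from -0.202 to 0.504 without wild-type arrays 4 and 5, so the ranges then came close. Camkk1 had the widest swing, from -0.27 on wild-type array 1 to 0.29 on wild-type array 2. Markers moved on the same arrays. The mean level of 6 excitatory neuron markers was 7.95 and 8.03 on wild-type arrays 4 and 5, below the 8.10 to 8.25 of the other 8 arrays. The 6 astrocyte markers (8.35 and 8.38 against 8.48 to 8.71) and the 4 endothelial markers (6.86 and 6.84 against 6.93 to 7.37) were also lowest there. The part of tissue composition in these 4 genes was not tested.

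**Figure D3:**
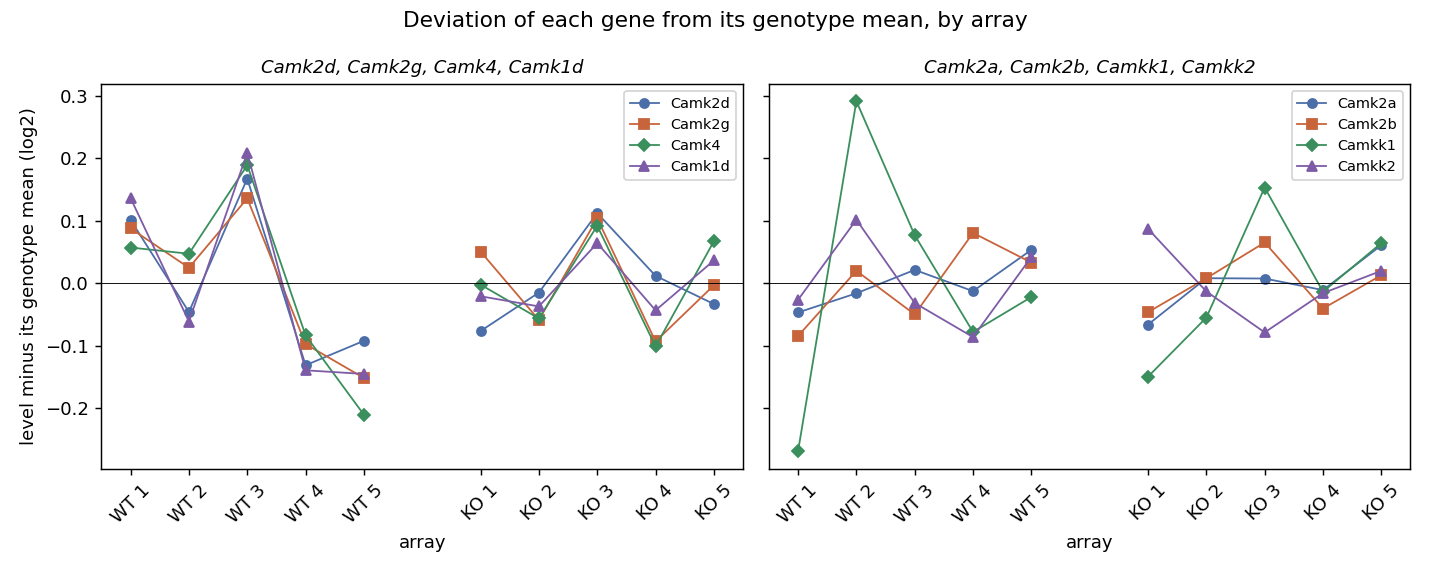
Level of each gene minus its genotype mean (log2) on each array, with Camk2d, Camk2g, Camk4 and Camk1d on the left and Camk2a, Camk2b, Camkk1 and Camkk2 on the right (WT, wild type; KO, knockout). On the left all 4 genes are below their mean on wild-type arrays 4 and 5 and highest in wild type on array 3; on the right Camkk1 spans -0.27 to 0.29 while Camk2a stays within 0.07 of its mean.

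For each member the 3 genes whose deviations followed it most closely over the 10 arrays were taken from all 16366 others by Pearson's r, which makes high values certain in so large a screen. For Camk2d these were Chic1 (0.969), Mapk9 (0.954) and Xrn2 (0.953), and for Camk1d they were Xrn2 (0.981), Me1 (0.976) and Trp53inp1 (0.970), so Xrn2 stood in both sets. For Camk2g they were Mcf2 (0.988), Rfwd3 (0.987) and Scyl2 (0.985), and for Camk4 Mtdh (0.984), Mrps15 (0.983) and Dpysl3 (0.978). For Camk2a they were Skint4 (0.956), Top2a (0.954) and Sprr2b (0.930), and for Camk2b Nyx (0.971), Rasa4 (0.952) and Ddx11 (0.942). For Camkk1 they were Eya1 (0.960), Bmp7 (0.944) and Rps10 (0.938), and for Camkk2 Cabyr (0.970), Rassf3 (0.969) and Gpr3 (0.940). No other CaM kinase gene was among any member's 3. On the 8 arrays other than wild-type 4 and 5 the lowest of these correlations was 0.917 and the highest 0.998.

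The promoters of Camk1d and Camk2d are shown because these genes varied together most closely (r = 0.911 over the 10 arrays) of the 5 members whose promoters were matched, and that of Camkk1 because its difference was the largest of the family. Each is the 250 bases before a transcription start in RefSeq (GRCm38.p6), 5′ to 3′ on the gene's strand. Capitals mark matches, on either strand, to the GC box GGGCGG, the core TGACG of the cAMP response element, and the TATA box TATAAA, with overlapping matches each marked. RefSeq gives Camk1d 2 starts in this table, on the minus strand of chromosome 2, at chr2:5714763-5715012 and chr2:5676047-5676296. Camk2d lies on the plus strand at chr3:126596701-126596950 and Camkk1 on the plus strand at chr11:73018738-73018987.
Camk1d, first start: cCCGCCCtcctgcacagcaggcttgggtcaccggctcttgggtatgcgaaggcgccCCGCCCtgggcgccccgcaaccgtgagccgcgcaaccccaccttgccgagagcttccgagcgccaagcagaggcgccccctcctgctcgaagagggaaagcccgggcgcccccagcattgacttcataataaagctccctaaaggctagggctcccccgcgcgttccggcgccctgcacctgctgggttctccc
Camk1d, second start: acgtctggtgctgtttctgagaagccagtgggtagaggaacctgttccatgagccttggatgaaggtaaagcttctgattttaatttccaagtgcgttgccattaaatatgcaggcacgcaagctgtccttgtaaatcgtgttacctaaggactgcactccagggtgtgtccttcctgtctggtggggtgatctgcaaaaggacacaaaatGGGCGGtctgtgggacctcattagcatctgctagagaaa
Camk2d: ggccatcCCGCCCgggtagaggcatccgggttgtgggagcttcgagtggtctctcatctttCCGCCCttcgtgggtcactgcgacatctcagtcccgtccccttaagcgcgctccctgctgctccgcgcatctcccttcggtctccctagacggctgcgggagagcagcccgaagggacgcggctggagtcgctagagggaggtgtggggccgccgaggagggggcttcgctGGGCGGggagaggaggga
Camkk1: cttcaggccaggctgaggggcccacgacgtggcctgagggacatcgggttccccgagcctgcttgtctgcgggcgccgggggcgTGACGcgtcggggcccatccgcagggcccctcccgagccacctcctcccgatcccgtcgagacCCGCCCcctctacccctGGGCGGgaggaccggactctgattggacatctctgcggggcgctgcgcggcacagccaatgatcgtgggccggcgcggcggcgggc
The GC box occurred 2 times before the first Camk1d start, 1 time before the second, 3 times before Camk2d and 2 times before Camkk1, and it is found in 32.7% of the 32851 promoters of this length. The core TGACG occurred 1 time before Camkk1 and not in the other 3, against 17.8% of all promoters, and the TATA box in none of the 4, against 12.4%. The second Camk1d start differed in base composition from the other 3, at 48.4% G and C against 69.2% for the first, 68.4% for Camk2d and 74.4% for Camkk1. The median over all promoters of this length was 52.4%. These are descriptions of letters, and binding was not measured.

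No single probe set of the family passed over the 628415 probe sets tested (limma, smallest adjusted p = 0.616), against 0.00239% that did. Of the 257 tested, 188 had a higher estimate in the knockout (73.2%) and 69 a lower one, where 54.2% of the 238335 probe sets of tested genes were higher. An unadjusted p under 0.05 was found in 20 (7.78%, 16 higher and 4 lower), where 4.42% of the probe sets of tested genes had one (2.64% higher) and 5.97% of all probe sets tested. Leaving out wild-type arrays 4 and 5 gave 158 higher, against 42.7% of all probe sets of tested genes, and 12 with a p under 0.05, against 4.95%. When any 1 array was left out the latter count ran from 9 to 19. It was 9 without knockout array 5, where 3.82% of the probe sets of tested genes had such a p, and 13 without wild-type array 4 or knockout array 3. Probe sets of 1 gene share their RNA and are not independent.

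The lean toward higher estimates was not even across the family. Camkk1 had 18 of 19 probe sets higher, with a median difference of 0.25, and Camk2a 27 of 33, with 0.09. Camk4 had 24 of 30 higher (median 0.15), Camk1d 25 of 33 (0.11), Camk2g 25 of 36 (0.05), Camk2d 30 of 45 (0.08), Camkk2 18 of 28 (0.08) and Camk2b 21 of 33 (0.06). The groups separated completely at 6 probe sets, all higher in the knockout: 2 each of Camk2a and Camk1d and 1 each of Camkk1 and Camkk2, where 1.06% of the probe sets of tested genes separated.

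**Figure D4:**
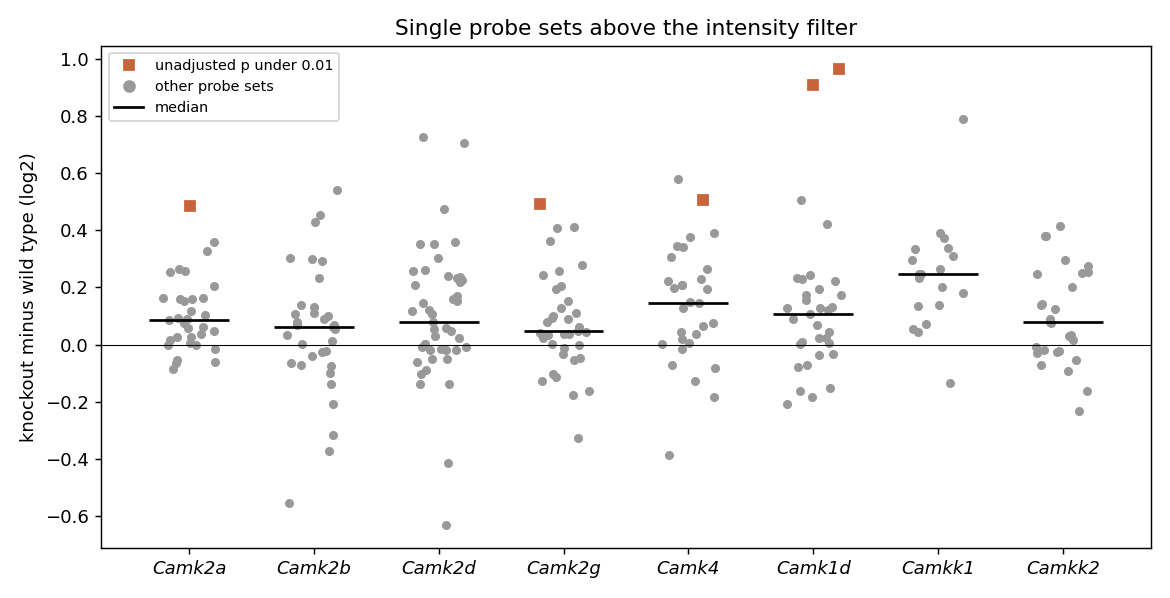
Difference of each of the 257 probe sets above the filter, knockout minus wild type (log2), by gene, with the median as a line and squares for an unadjusted p under 0.01. Camkk1 has 1 of 19 points below 0, and the 2 highest squares, at 0.91 and 0.97, belong to Camk1d.

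An unadjusted p under 0.01 (limma) was found at 5 probe sets, all higher in the knockout, with adjusted p-values of 0.616 to 0.785, where 0.81% of the probe sets of tested genes had one. In Camk2a it was probe set 4539395, at 7.91, 7.93, 8.09, 7.84 and 8.28 in wild type and 8.37, 8.64, 8.52, 8.33 and 8.60 in the knockout. Its lowest knockout array lay just above its highest wild-type array, and the difference was 0.48 (SE 0.15), in a gene whose 33 probe sets had a median difference of 0.09. In Camk2g it was probe set 4975805, which read 6.37, 5.87, 5.94, 5.80 and 5.99 against 6.61, 6.59, 6.54, 6.41 and 6.29. Wild-type array 1 alone reached into the knockout range there, and the difference was 0.49 (SE 0.15). In Camk4 it was probe set 4485388, at 8.44, 8.47, 8.80, 8.39 and 8.22 against 8.995, 8.91, 9.24, 8.66 and 9.04, a difference of 0.51 (SE 0.16). Knockout array 4, at 8.66, lay below wild-type array 3.

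The probe sets at the 2 ends of each gene's range showed how wide single exons scattered. In Camk2d they ran from -0.63 (SE 0.28, probe set 4664047) to 0.73 (SE 0.25, probe set 4668296), and in Camk2b from -0.55 (SE 0.25, probe set 4349594) to 0.54 (SE 0.24, probe set 4939509). All 4 of these were dim, with means over the 10 arrays of 5.19 to 6.22. In Camk4 the range was -0.39 (probe set 4491734) to 0.58 (probe set 5031719), in Camk2g -0.33 (5388696) to 0.49, in Camk2a -0.08 (4881418) to 0.48, in Camkk2 -0.23 (4326361) to 0.41 (5095669), in Camkk1 -0.13 (5346714) to 0.79 (4493168), and in Camk1d -0.21 (5036131) to 0.97. The Camk4 probe set 5031719 read 6.55, 6.30 and 6.88 on wild-type arrays 1 to 3 but 4.23 and 2.57 on arrays 4 and 5, against 5.25 to 6.64 in the knockout. Camkk1 probe set 4493168 likewise rested on 1 low array, at 3.92 on wild-type array 1 against 5.16 to 6.65 on the other 4 and 5.34 to 6.78 in the knockout.

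Relative exon use was tested as the difference of a probe set from the rest of its gene (limma diffSplice, Simes p, adjusted over 16367 genes). Camk1d was the 1 member of 8 that passed (adjusted p = 0.0144), where 276 genes, 1.69% of those tested, did. Its 2 leading probe sets were 5147375 and 4350974, both higher in the knockout relative to the gene, by 0.86 and 0.80. Probe set 4350974 read 6.87, 6.50, 7.33, 7.13 and 6.69 on the wild-type arrays and 7.59, 7.80, 8.16, 7.65 and 7.85 on the knockout arrays, so that all 5 knockout arrays lay above all 5 wild-type arrays. Its own difference was 0.91 (SE 0.19), or an unadjusted p of 0.000312 and an adjusted p of 0.616 over all probe sets. Probe set 5147375 read 6.09, 4.77, 6.54, 6.65 and 6.24 against 6.79, 7.23, 6.92, 6.93 and 7.24, again without overlap, and 0.97 apart (SE 0.30). Relative to the mean of the remaining 31 probe sets, 4350974 also separated the groups, but 5147375 did not. Its relative value on wild-type array 4, -1.83, lay above those of knockout arrays 1 and 3, -1.93 and -1.88. Wild-type array 2 was the lowest of its group at both. The mean of the remaining 31 Camk1d probe sets was 8.65 ± 0.17 on wild-type and 8.73 ± 0.05 on knockout arrays (SD, n = 5 each).

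**Figure D5:**
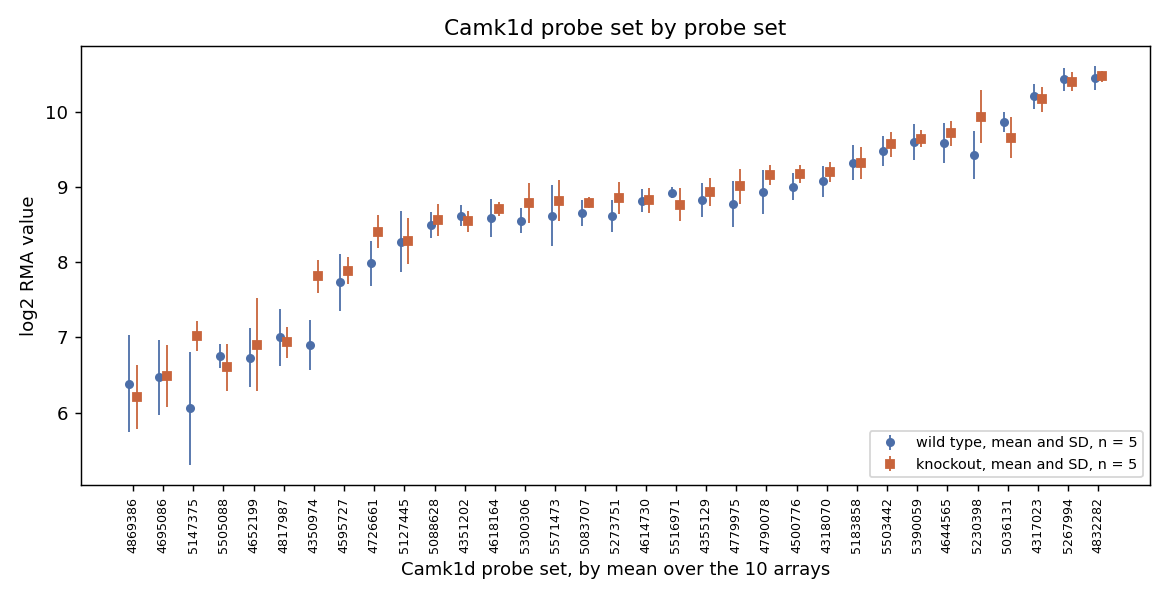
Mean and SD (n = 5) of each of the 33 Camk1d probe sets above the filter on the log2 scale, circles for wild type and squares for knockout, ordered by the mean over the 10 arrays. Probe sets 5147375 and 4350974 are the 2 at which the group means differ by 0.97 and 0.91, and their means over the 10 arrays, 6.54 and 7.36, lie below the gene's median probe set level of 8.74.

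The Camk1d call depended on the arrays and on the model. It remained without wild-type arrays 4 and 5 (adjusted p = 6.28e-05), but was lost without wild-type array 1 (0.0529) or 2 (0.143) or knockout array 2 (0.0723) or 5 (0.0686), with the F test over all probe sets of the gene (0.149), and when every probe set kept its own variance (0.796, a setting under which 0.0367% of all genes passed). Camk2d (adjusted p = 0.130) and Camk2b (0.131) missed the threshold, though Camk2d passed without wild-type array 2 (0.0450) or 5 (0.0336) and Camk2b when either array numbered 2 was dropped (0.0438 for wild type, 0.0311 for knockout), and Camk2a, Camkk1, Camk2g, Camkk2 and Camk4 had adjusted p-values of 0.512 to 0.984. Which exon a probe set covers was not analysed here, so the 2 Camk1d probe sets are not placed relative to its 2 starts.

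Of 86 genes of the calcium and calmodulin pathway around the kinases, 83 were measured, and none passed over all genes (limma, smallest adjusted p = 0.582). These genes were chosen with earlier results of these data known, so the shares that follow are descriptions and not independent support. The list held 14 with an unadjusted p under 0.05 (16.9%), 12 higher and 2 lower, against 6.98% of all genes, of which 2.84% were higher and 4.14% lower. Their estimates were higher in the knockout in 54 and lower in 29, with a median of 0.04 against -0.0019 over all genes. The 54 are 65.1% of those measured, against 49.3% of all genes and 66% of the genes at least as bright as the dimmest CaM kinase. The groups did not overlap in 8 of the 83 genes, against 1.55% of all genes (0.923% with the knockout higher). Leaving out wild-type arrays 4 and 5 gave 37 higher estimates, where 33.8% of all genes were higher. It gave 6 with a p under 0.05 on the higher side, and leaving out knockout array 5 also gave 6. The share of all genes with such a p was not computed in these settings.

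Of the 13 targets of CaMKII measured, 12 had a higher estimate in the knockout and 5 an unadjusted p under 0.05, all higher, and the median was 0.09. A higher estimate was found in 49.3% of all genes and in 66% of those at least as bright as the dimmest CaM kinase. An unadjusted p under 0.05 was found in 6.98% of all genes (2.84% higher) and in 6.11% of those bright genes. Whether this list differs from the others was not tested. Leaving out wild-type arrays 4 and 5 gave 11 targets with a higher estimate. In that setting 33.8% of all genes and 35.4% of the bright genes were higher. It gave 4 targets with such a p on the higher side, and leaving out wild-type array 1 gave 3. The share of all genes with such a p was not computed in these settings. Kalrn, a guanine nucleotide exchange factor of dendritic spines, averaged 8.48 ± 0.12 on wild-type and 8.74 ± 0.06 on knockout arrays (SD, n = 5 each), a difference of 0.25 (SE 0.08, adjusted p = 0.614) with no overlap between the groups. Tiam1, an exchange factor for Rac, differed by 0.22 (SE 0.08) and the NMDA receptor subunit gene Grin2a by 0.21 (SE 0.07), each with an adjusted p of 0.693. The groups overlapped in Tiam1 but not in Grin2a. The AMPA receptor subunit gene Gria1, the classical CaMKII substrate at synapses, missed an unadjusted p of 0.05 at 10.58 ± 0.15 and 10.75 ± 0.07, 0.18 apart (SE 0.08, unadjusted p = 0.0501), and was picked for naming after its value was seen.

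Scaffolds and anchors of CaMKII were higher in 7 of 10 measured genes. Beside this list and those below, 49.3% of all genes were higher. Of the genes at least as bright as the dimmest CaM kinase, 66% were. Grin2b, the NMDA receptor subunit to which activated CaMKII binds, averaged 9.44 ± 0.05 on wild-type and 9.68 ± 0.07 on knockout arrays, 0.24 apart (SE 0.07, adjusted p = 0.582), and Lrrc7 (densin-180), a CaMKII-binding protein of the postsynaptic density, was 0.15 higher (SE 0.07, adjusted p = 0.716). In both genes the groups did not overlap. Rem2 was lower by -0.11 (SE 0.10).

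Among other CaM kinases and relatives, 6 of 11 estimates were higher. The death-associated kinase gene Dapk1 was at 8.70 ± 0.08 and 8.90 ± 0.05, 0.20 apart (SE 0.07, adjusted p = 0.693) with no overlap, while its relative Dapk2 went the other way, from 6.37 ± 0.16 to 6.09 ± 0.15 and by -0.28 (SE 0.09, adjusted p = 0.693). The doublecortin-like kinase gene Dclk1 differed by 0.15 (SE 0.07).

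Inhibitors, phosphatases, calcineurin, and calmodulin buffers with their relatives were spread on both sides of 0. The 9 inhibitors and phosphatases had 4 higher estimates, with Ppm1e, a phosphatase that acts on CaM kinases, at 0.18 (SE 0.08), the CaMKII inhibitor gene Camk2n2 at -0.21 (SE 0.12) and the phosphatase catalytic subunit gene Ppp2ca at -0.06 (SE 0.07). Of 10 calcineurin genes 6 were higher, and Cabin1, a calcineurin-binding protein, was at 8.03 ± 0.04 and 8.18 ± 0.03 with no overlap, 0.16 apart (SE 0.06, adjusted p = 0.693). The calcineurin regulators Rcan3 and Rcan2 were at -0.16 (SE 0.11) and -0.11 (SE 0.09). The buffer gene Pcp4 and its relative Pcp4l1 were at -0.13 (SE 0.10) and -0.13 (SE 0.12), and Gap43 at 0.07 (SE 0.07). Of the 3 calmodulin genes only Calm3 was measured, at 0.06 (SE 0.14).

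Targets of the CaM kinase kinase cascade were higher in 8 of 14 genes, with the neuronal transcription factor gene Mef2c at 0.20 (SE 0.09, adjusted p = 0.693), the CREB-binding protein gene Crebbp at 0.09 (SE 0.07) and Akt1 at -0.08 (SE 0.09). Other calmodulin effectors were higher in 6 of 9. The calmodulin-dependent phosphodiesterase genes Pde1a and Pde1c went opposite ways, at 0.22 (SE 0.08) and -0.27 (SE 0.11), and the calcium pump gene Atp2b2 was at 0.12 (SE 0.07).

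The levels of some marker lists differed between genotypes beside these values, and only the hypothalamic list separated. The mean of 6 hypothalamic markers was 6.19 to 6.91 on the wild-type arrays and 5.69 to 5.94 on the knockout arrays, without overlap, and all 6 were lower. The 7 oligodendrocyte markers were all lower too, at 8.22 to 9.18 against 8.24 to 8.64, as were all 6 striatal markers (8.61 to 9.08 against 8.09 to 8.92), all 6 microglial markers (6.95 to 7.35 against 7.00 to 7.11) and all 4 choroid plexus markers (6.98 to 8.57 against 6.50 to 8.58). The microglial mean differed by only -0.05, with Csf1r at -0.00091. Over all genes 49.3% of the estimates were higher in the knockout. The 6 excitatory neuron markers had 4 higher and 2 lower, at 7.95 to 8.25 against 8.10 to 8.25, the 7 inhibitory neuron markers 2 higher and 5 lower, the 6 astrocyte markers 2 and 4, and the 4 endothelial markers 1 and 3. No marker gene passed, and none of the 52 measured was at 0. The part of these shifts in the CaM kinase differences was not tested.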

How the data were processed

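RNA of mouse amygdala was measured on 10 exon arrays, 5 per genotype, after ribosomal RNA reduction. The authors deposited log2 values for each probe set, which they computed with RMA in Affymetrix Expression Console (the submitters' processing notes). Which version and genome build they used is not given in the sources used here. RMA pulls arrays to a shared distribution, so values are relative within an array.

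Gene names came from the platform annotation, with old symbols updated to GRCm38.p6 through synonyms held by 1 gene. The gene level was the mean of a gene's probe sets above the filter (mean over the arrays above 4.94), for genes with at least 3 of them. Genotype differences were fitted by limma 3.58.1 (lmFit, then eBayes, in R 4.3.3 with the data.table package at 1.17.8), without covariates, two-sided, with Benjamini-Hochberg adjustment and a threshold of 0.05, and exon use with diffSplice. Differences are knockout minus wild type, and SEs are those of the fit. The scripts were tested on simulated data with known changes. Precision is limited by the 5 arrays per genotype.

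The members and gene lists were chosen with earlier results of these data known. Named were all members, their probe sets with an unadjusted p under 0.01 and the highest and lowest difference of each, up to 3 genes of smallest p in each pathway role, the 3 genes most like each member, and Klk8. Gria1, Camk1 and Pnck were named in addition, after their values were seen. Sequences are from RefSeq, and 6 promoters of 5 members were matched by symbol. Alternatives were another normalization, filter, summary, prior, weighting, threshold and exon use test, the replicate number as a block, and arrays left out.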

Additional observations from a re-analysis of the deposited data

How the results depend on the processing

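Under 22 other settings no member gene and no pathway gene passed, and under 19 no member probe set did. The differences of single members kept their direction in 166 of 168 comparisons. The exceptions were both of Camk2g: -0.0056 when wild-type arrays 4 and 5 were dropped, and -0.085 when probe sets were summarised by their median. The cause was not tested. The smallest adjusted p of any member was 0.367. The number of members called for exon use was 1 with all arrays. It was 0 when every probe set kept its own variance, 0 with the F test, and 0 to 2 when any 1 array was left out. Genes called for exon use in all were 276, but 94 with the stricter filter, 448 with the block, 462 without wild-type arrays 4 and 5, 37 with the F test and 6 with separate variances. Over the probe sets above the filter alone, a setting chosen after seeing the data, Klk8 differed by -0.39 (exact permutation p = 0.0476). The mean over all 9 Klk8 probe sets, -0.15 with all arrays, had a leave-one-out range of -0.25 to -0.045, and their median gave -0.61 (exact permutation p = 0.0794).

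With the replicate number as a block 2 members were called for exon use, Camk1d and Camk2d (adjusted p = 0.0415), and 0 at the gene or probe set level. The labels do not say that a number marks a shared litter, batch or day. Deviations of same-numbered arrays correlated at 0.282, 0.0817, 0.265, 0.412 and 0.240, and since that of number 2 was under 0.1 the numbers were not taken as pairs. As a hint from the data, 7 of 10 arrays correlated best with their own number.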

Other observations

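The 12 member probe sets below the intensity filter, 3 each of Camk1d, Camk2d, Camk4 and Camkk2, had means of 1.82 to 4.87. They were left out of the main gene, probe set and exon use fits. They entered only the exact permutation tests over all probe sets of a gene and the setting without an intensity filter. Their differences ran from -0.48 to 1.30. The highest was Camk2d probe set 5357947. Camkk2 probe set 5466871 was the 1 of the 12 whose groups did not overlap, with wild-type arrays from 4.32 to 4.92 and knockout arrays from 4.96 to 5.40. It was named after its values were seen. The share of all probe sets below the filter whose groups did not overlap was not computed.

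Without wild-type arrays 4 and 5 the deviations of Camkk2 and Camk2d over the remaining 8 arrays correlated at -0.949, against -0.385 over all 10, and those of Camkk1 and Camk2b at 0.851 against 0.468. These pairs were picked from 28 after their values were seen.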
